A study of Homo sapiens with 24 samples.

Results

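The 31 nucleoporin transcripts described here are those of the nuclear pore complex other than POM121, the pore protein that was targeted. They were chosen as a fixed list of gene symbols, from 25277 symbols in the deposited table, and grouped by their place in the pore: 9 in the Y complex, 5 in the inner ring, 4 in the central channel, 9 on the cytoplasmic face, 3 in the nuclear basket and 1 in the pore membrane. The rule uses gene symbols only. RNA-seq was run on DU145DR and 22Rv1DR cells, aggressive sublines of the human prostate cancer lines DU145 and 22Rv1 (the labels write DU145-DR and 22Rv1-DR) used elsewhere to model docetaxel resistance. In each subline the groups were an arm labelled Control, siPOM121 construct 1 (s59623) and siPOM121 construct 2 (s19145), with no dose or time stated, and what the control cells received is not given. Each of 12 libraries was read on 2 lanes, giving 24 samples, with 2 libraries in each of 6 groups. The labels code them by a number and a letter: A stands for control, B for construct 1 and C for construct 2, with the numbers 1 and 2 for DU145DR and 4 and 5 for 22Rv1DR, so that 4B is a construct 1 library of 22Rv1DR.

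The nuclear pore complex is the channel through which proteins and RNA pass between nucleus and cytoplasm. It is built from many copies of each nucleoporin: scaffold proteins form coaxial rings, proteins rich in phenylalanine-glycine repeats fill the channel, filaments reach into the cytoplasm, a basket reaches into the nucleus, and membrane proteins anchor the whole in the nuclear envelope. POM121 is one of those membrane anchors and acts early in the building of new pores. Proliferating tumour cells must make enough pore protein for each division, and POM121 has been studied in prostate cancer for its part in the import of transcription factors.

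Levels are given in FPKM, the number of sequenced fragments scaled by transcript length and by library size, so that levels of different genes can be set side by side. A library value is the mean of its 2 lanes on the log2 scale, and a group value is the mean of its 2 libraries on that scale, turned back into FPKM. Sequencing depth is unknown. Differences are log2 fold changes with the standard error (SE) from a limma fit over 13622 symbols, with n = 2 libraries a group. A transcript is said to have risen or fallen where its p-value, adjusted by Benjamini-Hochberg over all those symbols, was under 0.05. A siPOM121 effect is the mean of both constructs against control unless a construct is named. The labels do not state that a group's libraries are separate cultures, so the p-values measure the spread between these libraries, which may be technical. The fit gave each symbol a single spread, shared by all groups of both lines. The construct 2 libraries of 22Rv1DR differed more than those of other groups. The p-values of tests with that group may therefore be too small, and those of other tests too large.

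The labelled lines were checked against their markers. HOXB13, FOLH1, KLK2 and KLK3, genes of luminal prostate cells that mark 22Rv1, were listed at 0 in all 6 DU145DR libraries, and HOXB13 stood at 37.5 FPKM in 22Rv1DR controls. VIM and CD44 stood at 561 and 113 FPKM in DU145DR controls and were listed at 0 in 22Rv1DR. All 7 markers of blood, endothelial and stromal cells were listed at 0 throughout. Lanes 1 and 2 held every DU145DR library together with 4A, and lanes 3 and 4 held the rest of 22Rv1DR. The construct 2 libraries of 22Rv1DR stood apart from each other: members differed between 4C and 5C by a median of 0.151 on the log2 scale, 24 of 31 being lower in 4C, against 0.034 to 0.050 in the other 5 library pairs. Over all symbols tested the 4C to 5C difference was likewise 0.152, and genes of ribosomal proteins took 18.3% of FPKM in 4C and 12.1% in 5C. Some counts of members are therefore also given without 4C, without 5C or without both. Without both, the 22Rv1DR mean effect and the line difference could not be fitted.

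Transcripts start at promoters, and those of 28 members were found in RefSeq (GRCh38.p14); NUP43, GLE1 and AHCTF1 were not. The sequences below are the 250 bases before the annotated start of 4 members that fell in both sublines, shown because each holds a motif that was searched for. Capitals mark the matches: CACGTG (E-box) and AAGATGGCG (YY1, here on the other strand) in NUP188, CCGGAAGT (ETS) in NUP35, GCATGCGC (part of the NRF1 site, matched on both strands in an overlapping run) in NUP107, and CACGTG and GCATGCGC in NUP50. They lie on the plus strand at chr9:128947449-128947698, chr2:183124193-183124442, chr12:68686728-68686977 and chr22:45163675-45163924.
NUP188: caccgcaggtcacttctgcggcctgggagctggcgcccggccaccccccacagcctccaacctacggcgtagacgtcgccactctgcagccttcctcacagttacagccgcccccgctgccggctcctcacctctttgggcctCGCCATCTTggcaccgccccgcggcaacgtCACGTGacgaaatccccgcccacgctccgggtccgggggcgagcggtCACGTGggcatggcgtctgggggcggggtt
NUP35: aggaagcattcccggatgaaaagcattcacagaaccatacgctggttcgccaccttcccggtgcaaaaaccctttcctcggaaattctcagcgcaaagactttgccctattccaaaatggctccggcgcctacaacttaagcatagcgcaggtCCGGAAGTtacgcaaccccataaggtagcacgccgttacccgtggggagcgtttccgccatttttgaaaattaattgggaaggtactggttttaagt
NUP107: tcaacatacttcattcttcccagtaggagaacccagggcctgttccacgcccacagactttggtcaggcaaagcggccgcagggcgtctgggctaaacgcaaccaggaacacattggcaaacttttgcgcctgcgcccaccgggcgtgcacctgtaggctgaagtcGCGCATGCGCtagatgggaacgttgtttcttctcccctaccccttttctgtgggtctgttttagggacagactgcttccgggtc
NUP50: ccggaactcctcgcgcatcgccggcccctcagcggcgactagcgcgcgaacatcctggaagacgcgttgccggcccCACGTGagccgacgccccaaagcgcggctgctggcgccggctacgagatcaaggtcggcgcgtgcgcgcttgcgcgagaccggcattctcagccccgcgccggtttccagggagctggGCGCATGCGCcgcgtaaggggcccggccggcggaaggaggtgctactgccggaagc

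Motifs were searched on both strands. CCGGAAGT occurred in 5 of the 28 member promoters (17.9%) and in 3.42% of all 35116 promoters of the table. TGACGTCA, the cyclic AMP response element, occurred in 4 (14.3%, against 1.65%), namely those of NUP133, NUP214, NUPL2 and DDX19A. GCATGCGC occurred in 3 (10.7%, against 2.63%), CACGTG in 2 (7.14%, against 6.34%) and AAGATGGCG in 1 (3.57%, against 0.652%). GGGCGG (SP1), left in lower case above, occurred in 11 (39.3%, against 42.6%), and the E2F letters TTTCGCGC or TTTGGCGC in none of the 28, against 0.968%. Matches to CCGGAAGT and TGACGTCA lay both before members that fell in a line (NUP35, NUP160, NUP133 and NUP214) and before members that passed in neither (SEC13, NUP54, NUPL1, NUPL2 and DDX19A). These matches describe letters in a window and show no binding. The promoters of the table were not limited to expressed genes, and their median share of G and C was 58%. That of the members ran from 50% (NUP35) to 80.8% (NUP210), and the shares with a motif were not matched for it.

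The targeted transcript was read first. POM121 stood at 21.6 and 21.3 FPKM in DU145DR controls, 13.4 and 13.5 with construct 1, and 12.5 and 13.2 with construct 2. 22Rv1DR values were 38.5 and 37.8 FPKM in controls, 7.68 and 7.81 with construct 1, and 6.73 and 7.43 with construct 2. All 8 siPOM121 libraries were below the controls of their line, with log2 fold changes of -0.71 ± 0.05 in DU145DR (adjusted p = 5.66e-05) and -2.37 ± 0.05 in 22Rv1DR (adjusted p = 9.48e-09). POM121C, a near-identical copy, moved by -0.71 and -2.58, and reads of the copies may have been assigned to either.

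All 31 members were above the floor of 1 FPKM in every sample and all were tested. In DU145DR 8 members fell with siPOM121 (25.8%), where 9.37% of all tested symbols fell, and no member rose, where 14.5% of all symbols rose. In 22Rv1DR 19 fell (61.3%) against 20.4% of all symbols, and again none rose, against 15.2%. Members were not scarce transcripts, and of the 9411 symbols with a mean log2 FPKM of at least 2, which all 31 exceeded, 11.9% fell in DU145DR and 25.2% in 22Rv1DR. The median log2 fold change of the members was -0.09 in DU145DR and -0.21 in 22Rv1DR, where all tested symbols had medians of 0.00 and -0.02. In each line 29 of 31 members lay below 0. Of all 13622 symbols, 5657 lay below 0 in DU145DR and 7166 in 22Rv1DR. The sums of all member FPKM were 1061 and 1043 in DU145DR controls and 951 to 990 with siPOM121, or 90.4% to 94.1% of the control mean. In 22Rv1DR they were 817 and 814 in controls and 680 to 736 with siPOM121, or 83.5% to 90.3%. In these bulk samples fewer cells of a kind and less RNA per cell cannot be told apart.

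Of the members, 7 fell in both lines (NUP107, SEH1L, AHCTF1, NUP35, NUP188, NUP205 and NUP50), which is 22.6% of 31 where 4.23% of all symbols fell in both. In DU145DR all 4 siPOM121 libraries lay below both controls for 17 members (22.0% of all symbols did) and above both for NUP210 alone (27.2% of all symbols). In 22Rv1DR they lay below both controls for 22 members (27.3% of all symbols) and above for none (18.0% of all symbols). The DU145DR count was 2 without 1A or without 2A, 4 without 1B, 2B or 1C, 5 without 2C, and 16 without 4C or without 5C, each time 15 that fell and NUP210, which then rose. The share of all symbols that fell moved too, reaching 3.13% when 1A was dropped, 3.88% when 2A was dropped, and 16.3% with 4C or 5C dropped. The 22Rv1DR count was 12 without 4A, which leaves libraries of lanes 3 and 4 in that line, and 26 without 5C, of which 25 fell and NUP43 rose, while 11.4% of all symbols fell without 4A and 32.9% without 5C. With 22Rv1DR fitted on its own it was 10, the calls of AAAS, GLE1, NUP155, NUP160, NUP210, NUP50, NUP62, NUP98 and SEH1L being lost. On the lower-numbered lanes alone 4 fell in DU145DR, and NUP107, NUP205, NUP50 and RAE1 lost their calls.

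**Figure D1:**
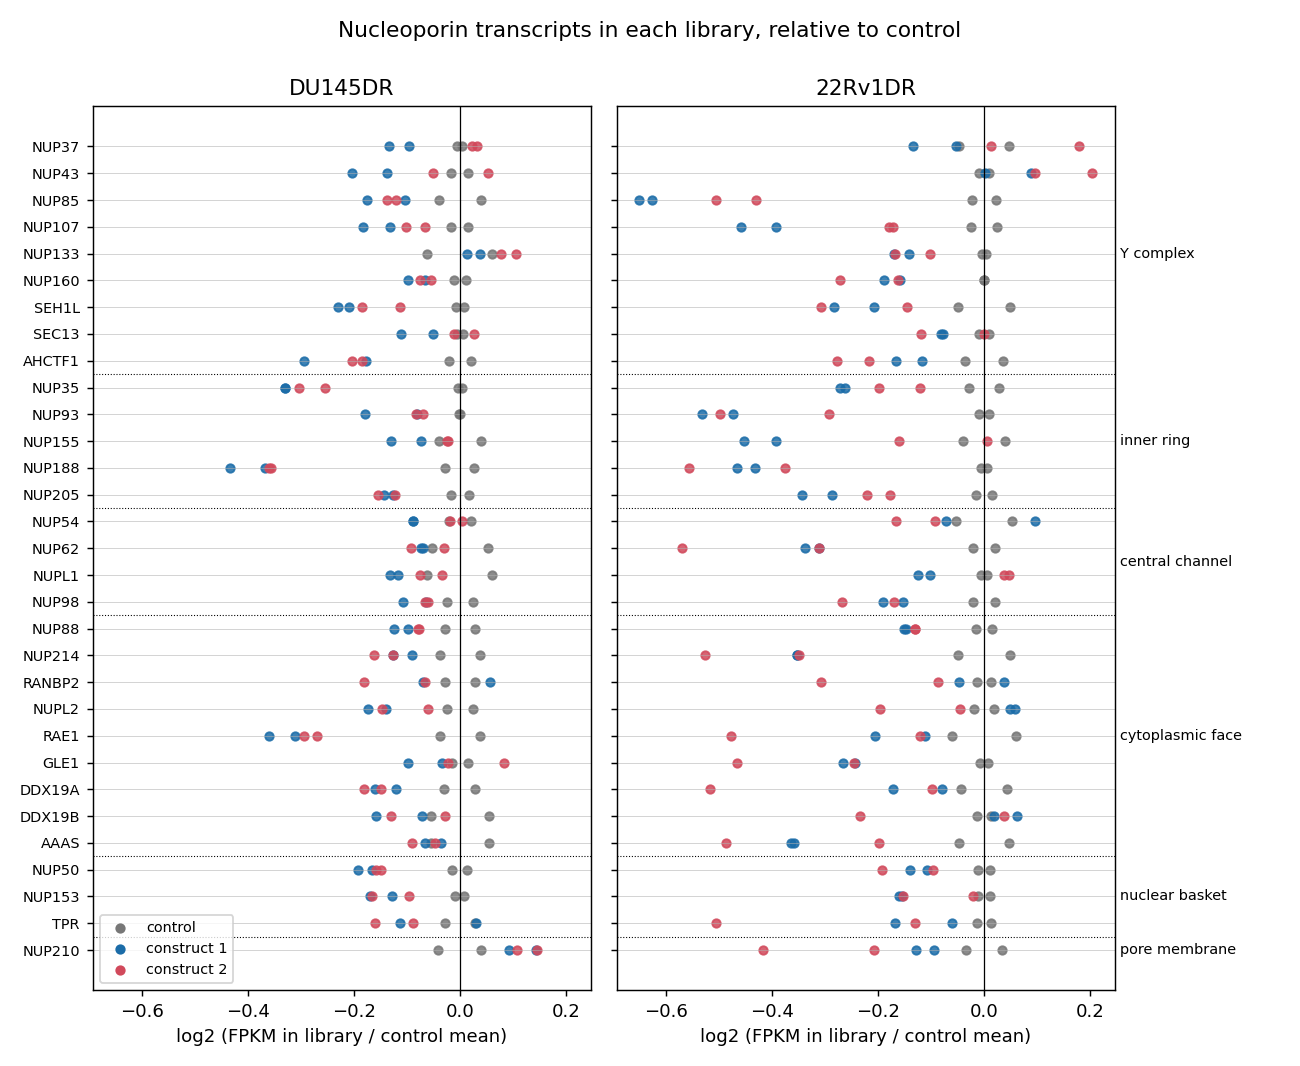
Each row is a nucleoporin transcript and each point a library, on the log2 scale relative to the control mean of its subline (DU145DR left, 22Rv1DR right); grey points are control libraries, blue construct 1 and red construct 2. For 17 members in DU145DR and 22 in 22Rv1DR all 4 siPOM121 points lie left of both controls, and NUP210 lies right of them in DU145DR only.

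The inner ring lines the pore beneath the Y-shaped coat and holds the channel proteins in place. The single pore membrane gene aside, it had the highest share of members that fell. These were 3 of 5 in DU145DR and 5 of 5 in 22Rv1DR, and the medians of its members were -0.14 and -0.26. With construct 2 alone 4 of 5 fell in 22Rv1DR, all but NUP155. NUP188, a large solenoid scaffold protein, stood at 74.9 and 72.1 FPKM in DU145DR controls, 54.4 and 56.9 with construct 1, and 57.4 and 57.3 with construct 2. Among 22Rv1DR libraries it had 40.4 and 40.8 FPKM in controls, 29.4 and 30.1 with construct 1, and 27.6 and 31.3 with construct 2. The groups did not overlap in either line, and siPOM121 libraries were lower by 23.1% in DU145DR (log2 fold change -0.38 ± 0.05, adjusted p = 0.00105) and 27.1% in 22Rv1DR (-0.46 ± 0.05, adjusted p = 0.000262). This was the largest fall of a member in DU145DR, and it passed the threshold in both lines under each alternative that could be run.

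NUP35, which binds NUP155 and NUP93 and touches the pore membrane, stood at 24.9 and 24.8 FPKM in DU145DR controls, 19.8 in both construct 1 libraries, and 20.1 and 20.9 with construct 2. In 22Rv1DR it stood at 12.5 and 12 FPKM in controls, 10.1 and 10.2 with construct 1, and 11.3 and 10.7 with construct 2. Every siPOM121 library was below both controls of its line, by 0.30 ± 0.04 on the log2 scale in DU145DR (adjusted p = 0.00096) and 0.21 ± 0.04 in 22Rv1DR (adjusted p = 0.00363). The 22Rv1DR call was lost on the lower-numbered lanes alone, with adjusted p-values from 0.000684 to 0.0742 over 23 alternatives.

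NUP205, a paralogue of NUP188, stood at 45.5 and 46.5 FPKM in DU145DR controls and 41.4 to 42.3 in the 4 siPOM121 libraries. 22Rv1DR libraries stood at 40.4 and 41.2 FPKM in controls, 32.1 and 33.4 with construct 1, and 35.0 and 36.1 with construct 2. Groups did not overlap, and NUP205 fell by 0.14 ± 0.04 on the log2 scale in DU145DR (adjusted p = 0.0241) and by 0.26 ± 0.04 in 22Rv1DR (adjusted p = 0.000822). The DU145DR call was lost without 1A, 2A, 1B, 2B or 1C, with adjusted p-values of up to 0.163.

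NUP93, which ties the inner ring to the channel trimer, stood at 49.7 and 49.6 FPKM in DU145DR controls, 43.9 and 47.0 with construct 1, and 47.3 and 46.9 with construct 2. 22Rv1DR values were 21.6 and 21.4 FPKM in controls, 14.9 and 15.5 with construct 1, and 15.2 and 17.6 with construct 2. All siPOM121 libraries lay below both controls in each line, but the fall passed the threshold only in 22Rv1DR (-0.45 ± 0.06, adjusted p = 0.0005, against -0.10 ± 0.06 and adjusted p = 0.237 in DU145DR). The difference between the lines was itself -0.35 ± 0.08 (adjusted p = 0.0152), and it lost its call without 1A, 2A, 4A or 5A (adjusted p of up to 0.0619).

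NUP155, which links the inner ring to the membrane proteins, stood at 62.6 and 66.0 FPKM in DU145DR controls and 58.7 to 63.3 with siPOM121, groups that overlapped (-0.06 ± 0.05, adjusted p = 0.469). Among 22Rv1DR libraries it had 18.4 and 17.4 FPKM in controls, 13.1 and 13.6 with construct 1, and 17.9 and 16.0 with construct 2. Construct 1 libraries were the low ones, and 4C lay between the controls. Against control NUP155 fell with construct 1 (-0.42 ± 0.06, adjusted p = 0.0013), and with construct 2 the value was -0.08 with an adjusted p of 0.371. As the mean of both constructs it also fell, and that call was lost without 4A and with the line fitted alone. Its mean effect ran from -0.29 to -0.20 on the log2 scale over 23 alternatives. The construct difference was 0.34 ± 0.06 (adjusted p = 0.0114) and was not called without 4B or without 5B (adjusted p of up to 0.15).

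**Figure D2:**
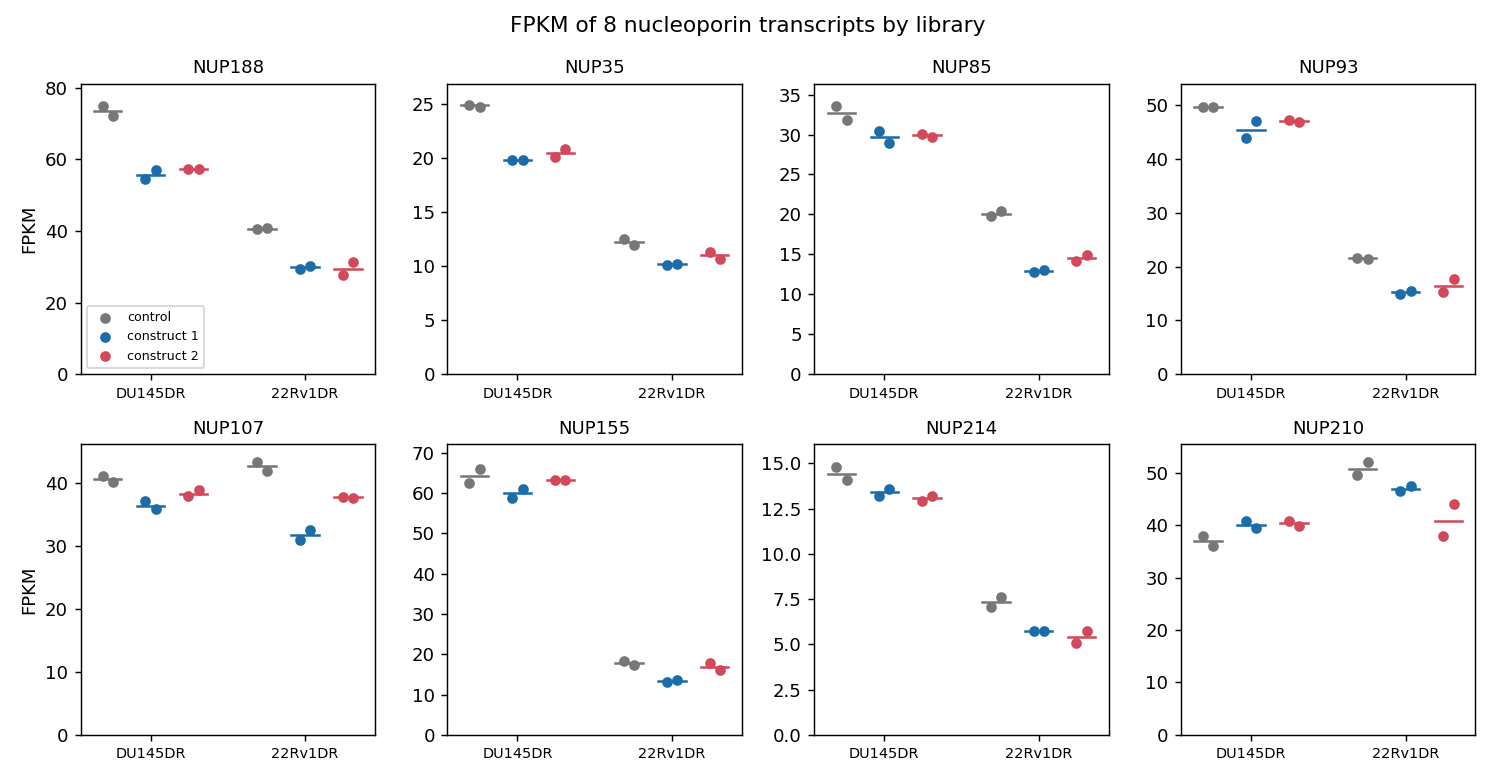
FPKM of 8 nucleoporin transcripts in each library (points) with the group mean (line), in DU145DR and 22Rv1DR; every axis starts at 0, and grey is control, blue construct 1 and red construct 2. NUP188 and NUP35 lie below control in both lines, NUP85 and NUP93 fell in 22Rv1DR, and NUP155 in 22Rv1DR is low with construct 1 only.

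The Y complex, whose copies form the outer scaffold rings on both faces of the pore, had 3 of 9 members that fell in DU145DR and 6 of 9 in 22Rv1DR, with medians of -0.08 and -0.19. NUP85, on a short arm of the Y, stood at 33.6 and 31.8 FPKM in DU145DR controls, 30.4 and 29 with construct 1, and 30.1 and 29.7 with construct 2. The 22Rv1DR levels were 19.8 and 20.4 FPKM in controls, 12.8 and 13.0 with construct 1, and 14.2 and 14.9 with construct 2. The 22Rv1DR groups lay far apart, a decrease of 31.8% that was the largest of any member in that line (-0.55 ± 0.04, adjusted p = 4.52e-05). In DU145DR the groups also did not overlap, with a value of -0.13 ± 0.04 and an adjusted p of 0.0519. The difference between lines was -0.42 ± 0.06 (adjusted p = 0.00206), the one such difference of a member that passed under each alternative run.

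NUP107, in the stem of the Y, stood at 41.1 and 40.2 FPKM in DU145DR controls, 37.1 and 35.8 with construct 1, and 37.9 and 38.8 with construct 2. 22Rv1DR libraries stood at 43.3 and 41.9 FPKM in controls, 31.0 and 32.5 with construct 1, and 37.8 and 37.6 with construct 2. No groups overlapped in 22Rv1DR, where construct 1 was lowest and construct 2 between it and control. NUP107 fell by 0.30 ± 0.04 on the log2 scale in 22Rv1DR (adjusted p = 0.00048) and by 0.12 ± 0.04 in DU145DR (adjusted p = 0.048), and the line difference was -0.18 ± 0.05 (adjusted p = 0.0375). With construct 2 it stood above construct 1 in 22Rv1DR by 0.25 ± 0.04 (adjusted p = 0.0102), not called without 4B (adjusted p of up to 0.17). The DU145DR fall was lost under 16 of 24 alternatives, without any one library other than 4C and 5C among them, and the line difference under 13 of 22, without any one library other than 5B, 4C and 5C among them (adjusted p of up to 0.25 and 0.242).

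SEH1L, shared with a regulator of the TORC1 kinase, stood at 55.7 and 55.2 FPKM in DU145DR controls, 48.0 and 47.3 with construct 1, and 51.3 and 48.8 with construct 2. In 22Rv1DR it stood at 29.1 and 27.2 FPKM in controls and 22.7 to 25.5 with siPOM121. Groups did not overlap in either line (-0.18 ± 0.05, adjusted p = 0.0361, and -0.24 ± 0.05, adjusted p = 0.00892). The DU145DR call was lost without any one DU145DR library, 4B or 5B, and on the higher-numbered lanes alone. The 22Rv1DR call was lost without 4A, on the higher-numbered lanes alone and with the line fitted alone.

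AHCTF1, also called ELYS, brings the Y complex to chromatin when pores form at the end of mitosis. It stood at 12.9 and 13.3 FPKM in DU145DR controls and 10.7 to 11.6 with siPOM121, and at 15.2 and 14.5 FPKM in 22Rv1DR controls and 12.2 to 13.7 with siPOM121. All siPOM121 libraries were below controls, and AHCTF1 fell by 0.21 ± 0.05 in DU145DR (adjusted p = 0.0111) and 0.19 ± 0.05 in 22Rv1DR (adjusted p = 0.0123) on the log2 scale. Calls were lost without 1A or 2A in DU145DR (adjusted p of up to 0.0978) and without 4A in 22Rv1DR (up to 0.106). Of the 50-base windows of its longest coding transcript 48.4% occur in other genes, almost all in the pseudogene AHCTF1P1, so its level is uncertain.

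NUP133, at the base of the stem, stood at 19.1 and 17.5 FPKM in DU145DR controls and 18.4 to 19.6 with siPOM121, groups that overlapped (0.06 ± 0.04, adjusted p = 0.393). Among 22Rv1DR libraries it had 28.8 and 29 FPKM in controls and 25.7 to 26.9 with siPOM121, a fall of 0.14 ± 0.04 on the log2 scale (adjusted p = 0.0296). The line difference of -0.20 ± 0.06 (adjusted p = 0.0409) lost its call under 13 of 22 alternatives (adjusted p of up to 0.175), among them without any one library other than 1A, 4C and 5C. The 22Rv1DR fall was lost under 8 of 23 alternatives, among them without 4A, 5A, 4B or 5B. The others were quantile normalization, array weights, lower-numbered lanes alone and scaling to FPKM outside ribosomal protein genes. NUP160, on a short arm of the Y, fell in 22Rv1DR by 0.20 ± 0.04 (adjusted p = 0.00568) and had a value of -0.07 in DU145DR. The other Y complex members did not pass the test in either line: NUP37 (-0.04 and 0.00), NUP43 (-0.08 and 0.10) and SEC13 (-0.04 and -0.07), the last of which also coats transport vesicles. NUP43 and NUP37 were the 2 members at or above 0 in 22Rv1DR.

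The central channel proteins carry the repeats that transport receptors bind. None of the 4 fell in DU145DR at an adjusted p under 0.05 or at an unadjusted p under 0.05, and 2 of 4 fell in 22Rv1DR, with medians of -0.07 and -0.13. Of all symbols 36.0% had an unadjusted p under 0.05 in DU145DR, and with construct 1 alone 1 of the 4 did. NUP62, the best known of the channel trimer, stood at 71.5 and 66.5 FPKM in DU145DR controls and 64.7 to 67.6 with siPOM121. The 22Rv1DR levels were 42.5 and 41.4 FPKM in controls, 33.2 and 33.8 with construct 1, and 28.3 and 33.8 with construct 2. DU145DR groups overlapped (-0.07 ± 0.07, adjusted p = 0.551), while in 22Rv1DR every siPOM121 library was low, 4C most of all (-0.38 ± 0.07, adjusted p = 0.00229). The line difference was -0.32 ± 0.09 (adjusted p = 0.0363), lost without any one library other than 4C and 5C (adjusted p of up to 0.153). Exons of ATF5 on the opposite strand cover 11% of NUP62, and the libraries do not keep strand. Of the NUP62 windows 18.9% occur in other genes, AC011452.1 first.

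NUP98, which serves both in the channel and in mRNA export, fell in 22Rv1DR by 0.19 ± 0.04 (adjusted p = 0.00624, and up to 0.0631 over its alternatives, lost without 5A) and had a value of -0.07 in DU145DR. NUP54 and NUPL1 (NUP58), the partners of NUP62 in the trimer, had values of -0.05 and -0.09 in DU145DR and -0.06 and -0.04 in 22Rv1DR, and did not pass the test. In 22Rv1DR the 3 genes of the trimer thus differed in their calls, with NUP62 at -0.38 against -0.06 and -0.04; differences between genes were not tested.

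Messenger RNA is released and import cargo first docks on the cytoplasmic face. Of its 9 members 1 fell in DU145DR and 4 in 22Rv1DR, with medians of -0.10 and -0.22. All 9 were below 0 in each line, against 5657 of 13622 symbols in DU145DR and 7166 in 22Rv1DR. NUP214, a docking site for the export receptor CRM1, stood at 14.8 and 14.1 FPKM in DU145DR controls and 12.9 to 13.6 with siPOM121. In 22Rv1DR it stood at 7.09 and 7.59 FPKM in controls, 5.75 in both construct 1 libraries, and 5.10 and 5.76 with construct 2. Groups were separate in both lines, and the 22Rv1DR fall passed the test (-0.39 ± 0.06, adjusted p = 0.00101) while DU145DR gave -0.13 ± 0.06 with an adjusted p of 0.152. The line difference of -0.27 ± 0.08 (adjusted p = 0.0405) was lost without any one library other than 4C and 5C (adjusted p of up to 0.161).

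GLE1, which activates the DDX19 helicases to strip proteins from exported mRNA, stood at 32.8 and 32.1 FPKM in DU145DR controls and 30.3 to 34.4 with siPOM121. 22Rv1DR values were 20.2 and 19.9 FPKM in controls, 16.7 and 16.9 with construct 1, and 14.5 and 16.9 with construct 2. DU145DR libraries overlapped (-0.02 ± 0.06, adjusted p = 0.959) and 22Rv1DR libraries did not (-0.30 ± 0.06, adjusted p = 0.00467). The line difference of -0.29 ± 0.09 (adjusted p = 0.0382) was lost without any one library other than 2C, 4C and 5C (adjusted p of up to 0.132).

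RAE1, the mRNA export factor that binds NUP98, was the 1 member of the face that fell in DU145DR: 30.3 and 28.7 FPKM in controls against 23.0 to 24.5 with siPOM121 (-0.31 ± 0.09, adjusted p = 0.0309). Its groups were also separate in 22Rv1DR (24.1 and 26.2 FPKM against 18 to 23.2), with a value of -0.23 ± 0.09 and an adjusted p of 0.068. The DU145DR call was lost without any one DU145DR library (adjusted p of up to 0.197). In 22Rv1DR AAAS (ALADIN) fell by 0.35 ± 0.07 on the log2 scale (adjusted p = 0.00571), a call lost without 5A and with the line fitted alone. NUP88, the partner of NUP214, fell by 0.14 ± 0.03 there (adjusted p = 0.0119). The NUP88 call was lost without 4A, with quantile normalization and on the higher-numbered lanes alone. Opposite-strand exons of RPAIN cover 17.8% of NUP88.

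RANBP2 (NUP358), the large filament protein and SUMO ligase, did not pass the test, at -0.06 and -0.10 in the order DU145DR and 22Rv1DR. Nor did NUPL2 (NUP42), at -0.13 and -0.03, or the helicases DDX19A, at -0.15 and -0.22, and DDX19B, at -0.10 and -0.03. Reads of several of these genes are shared: 62.2% of DDX19A windows and 40.8% of DDX19B windows occur in a readthrough transcript that spans both, 27.1% of RANBP2 windows occur in other genes, RGPD3 first, and opposite-strand exons cover 25.4% of NUPL2. Their levels are uncertain for that reason.

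The nuclear basket had 1 of 3 members that fell in each line, NUP50, which helps release import cargo inside the nucleus. NUP50 stood at 19.2 and 19.5 FPKM in DU145DR controls and 16.9 to 17.5 with siPOM121, and at 23.4 and 23.0 FPKM in 22Rv1DR controls and 20.3 to 21.7 with siPOM121. Groups were separate in both lines, and the falls were 0.17 ± 0.04 (adjusted p = 0.0153) and 0.13 ± 0.04 (adjusted p = 0.0271) on the log2 scale. The DU145DR call was lost without 1A, without 2A and on the lower-numbered lanes alone. The 22Rv1DR call was lost under 9 of 23 alternatives: without 4A, 5A, 4B or 5B and with the line fitted alone. The others were lower-numbered lanes, higher-numbered lanes, quantile normalization and scaling to FPKM outside ribosomal protein genes. Of the NUP50 windows 15.3% occur in other genes. NUP153 had values of -0.14 (adjusted p = 0.0523) and -0.12 (adjusted p = 0.0638), and TPR, the filament of the basket, -0.08 and -0.22 (adjusted p = 0.605 and 0.0987). TPR stood at 18.1 FPKM in 4C and 23.4 in 5C, against 25.9 and 25.4 in controls.

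NUP210 (gp210) is, like POM121, a protein of the pore membrane. It stood at 38.0 and 36.0 FPKM in DU145DR controls, 40.8 and 39.5 with construct 1, and 40.9 and 39.8 with construct 2. Among 22Rv1DR libraries it had 49.6 and 52.0 FPKM in controls, 46.5 and 47.5 with construct 1, and 38.0 and 44.0 with construct 2. Every siPOM121 library was above controls in DU145DR and below them in 22Rv1DR. The DU145DR value of 0.12 ± 0.06 did not pass (adjusted p = 0.169), the 22Rv1DR fall did (-0.21 ± 0.06, adjusted p = 0.0203), and so did the difference between them (-0.33 ± 0.08, adjusted p = 0.019). The difference was lost without 2A or 5A (adjusted p of up to 0.0905), and the 22Rv1DR fall without 4A, 5A or 4B (up to 0.158).

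The siPOM121 effects of the lines were compared directly. Their controls are separate libraries. For 8 members the 22Rv1DR effect was lower than the DU145DR effect (NUP85, NUP93, NUP210, NUP62, GLE1, NUP214, NUP133 and NUP107, from -0.42 to -0.18), and for none was it higher; 15.9% of all symbols were lower in this test and 8.93% higher. The median difference was -0.06 over members and -0.06 over all symbols. POM121 itself fell further in 22Rv1DR (difference -1.66 ± 0.07, adjusted p = 2.84e-06), and what part of the member differences goes with the depth of knockdown was not tested. The count of 8 was 1 without 2A or 5A, 2 without 4A, 3 with any of 1A, 1B, 2B, 1C or 4B left out, 4 with 2C or 5B left out, 10 for 4C and 16 for 5C. The counts held lower effects only, except that NUP43 was higher without 5C. All symbols with a lower effect made up 8.04% without 2A, 8.82% without 5A, 22.5% without 4C and 31.0% without 5C. The count of members was 3 (NUP85, NUP93 and NUP210) when FPKM were scaled to the sum outside ribosomal protein genes, whose share was 8.594% to 9.296% in DU145DR and 14.96% and 14.77% in 22Rv1DR controls, 16.84% and 16.36% with construct 1.

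**Figure D3:**
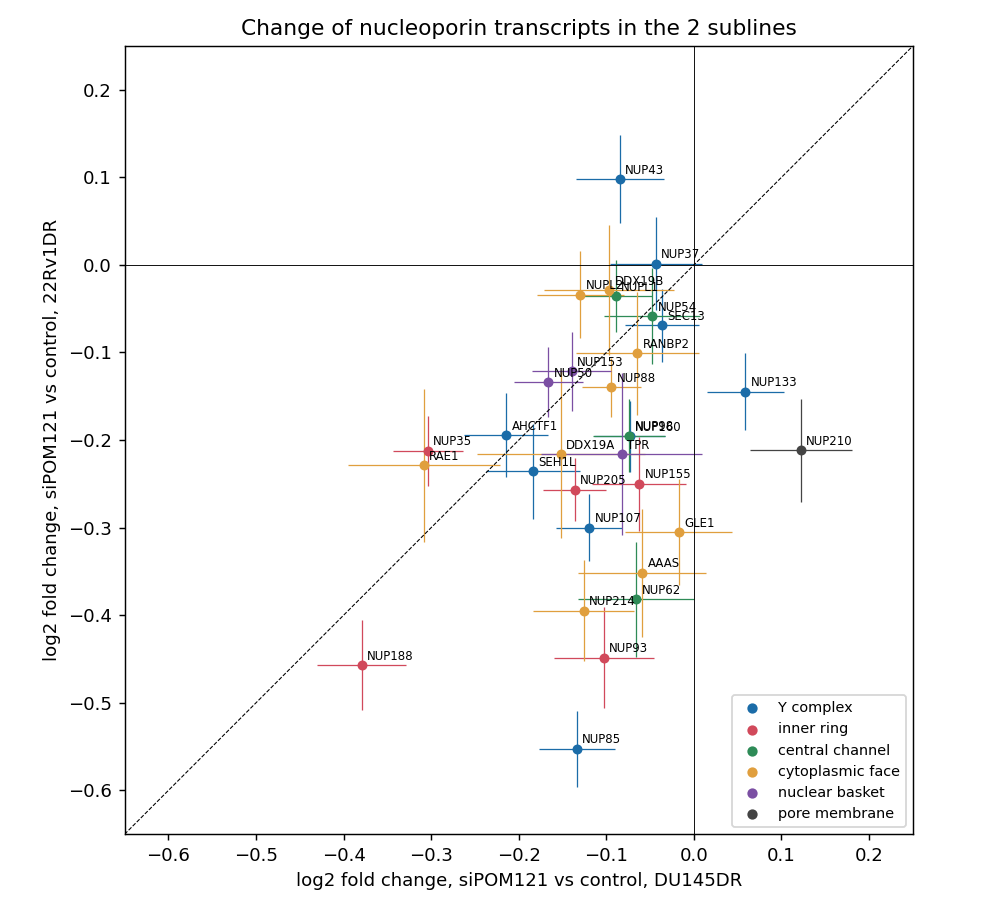
Log2 fold change with siPOM121 (mean of both constructs against control) in DU145DR (x axis) and 22Rv1DR (y axis) for each of 31 nucleoporin transcripts, coloured by subcomplex, with bars of 1 SE; the dashed line marks equal change. Most points lie below 0 on both axes, NUP188 at -0.38 and -0.46, and NUP85, NUP93 and NUP62 lie well below the dashed line.

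Each construct was also set against control, and constructs of a line share their control libraries. In DU145DR 7 members fell with construct 1 (7.62% of all symbols did) and 3 with construct 2 (5.62%), the latter being AHCTF1, NUP35 and NUP188. In 22Rv1DR 16 fell with construct 1 (15.2% of all symbols) and 19 with construct 2 (20.6%). With array weights these counts were 22 (24.6% of all symbols) and 6 (6.74%). With 22Rv1DR fitted alone they were 8 (6.42%) and 5 (4.87%). NUP85 had values of -0.64 ± 0.05 with construct 1 and -0.47 ± 0.05 with construct 2 in 22Rv1DR (adjusted p = 4.33e-05 and 0.000367), and NUP188 of -0.45 and -0.47. For NUP210 the values were -0.11 with construct 1 and -0.31 ± 0.07 with construct 2 (adjusted p = 0.00769), the low library being 4C. When the fit left out 4C and 5C together, 20 members fell with construct 1 in 22Rv1DR (23.7% of all symbols did). In DU145DR 15 then fell with construct 1 (15.1% of all symbols). With construct 2 there 12 were called, of which 11 fell (12.4% of all symbols) and NUP210 rose (18.1%).

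Left-out libraries moved these counts, and the shares of all symbols that fell moved the same way, so these shifts are not a trait of the members. Each such fit leaves 1 library in a group. In 22Rv1DR the construct 1 count was 9 without 4A, 5A or 5B and 8 without 4B, and the construct 2 count was 11 without 4A or 5A. In DU145DR the construct 1 count was 2 without 1A, 2A or 1B, 3 without 2B, 4 without 1C or 2C and 15 without 4C or 5C; the construct 2 count was 2 without any one library other than 1B, 2B, 4C and 5C, and 12 with either of 4C and 5C left out. With constructs 1 and 2 in DU145DR, NUP188 fell by 0.40 and 0.36 on the log2 scale and NUP35 by 0.33 and 0.28.

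The constructs differed from each other in no member in DU145DR by limma at an adjusted p under 0.05 (0.0220% of all symbols differed in either direction), with 2 members, NUP37 and NUP43, at an unadjusted p under 0.05, as were 5.32% of all symbols. In 22Rv1DR 2 members, NUP107 and NUP155, were higher with construct 2 than with construct 1 (7.30% of all symbols were higher), and none was lower (4.28% of all symbols were). Leaving out 4B gave a count of 0, 5B gave 1, 4C gave 4, all higher with construct 2, and 5C gave 15, of which 5 were higher (14.6% of all symbols then were) and 10 lower (29.3% of all symbols). The summed FPKM of the inner ring, relative to the control mean, was 74.9% and 77.3% in 4B and 5B and 80.5% and 83.9% in 4C and 5C, while that of the cytoplasmic face was 88.1% and 90.1% in 4B and 5B and 77.9% and 91.0% in 4C and 5C. The inner ring was thus low in all 4 siPOM121 libraries, and the face was lowest in 4C.

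In the control arms the levels of members spanned 8.76 to 73.5 FPKM in DU145DR and 7.34 to 54.5 FPKM in 22Rv1DR, with medians of 32.4 and 24.8. In DU145DR the order ran from NUP188 (73.5), NUP62 (68.9), NUP155 (64.3) and SEH1L (55.5) down to NUP214 (14.4), AHCTF1 (13.1) and RANBP2 (8.76). In 22Rv1DR it ran from AAAS (54.5), NUP210 (50.8), NUP37 (43.7) and NUP107 (42.6) down to DDX19A (11.7), RANBP2 (11.4) and NUP214 (7.34). Proteins that assemble into one ring differed widely in transcript level: in DU145DR the inner ring ran from NUP188 at 73.5 to NUP35 at 24.9 FPKM. Of 30 neighbouring pairs in the order, the library values overlapped in 11 in DU145DR and in 18 in 22Rv1DR, so those neighbours have no order beyond their spread.

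Between control arms 19 members were lower in 22Rv1DR than in DU145DR (42.7% of all symbols were), 8 were higher (40.3%) and 4 did not pass the test (NUP37, NUP107, RAE1 and TPR). All 5 inner ring members and all 4 channel members were lower in 22Rv1DR. NUP155 differed most, at 64.3 FPKM in DU145DR and 17.9 in 22Rv1DR (log2 difference -1.85 ± 0.06, adjusted p = 1.89e-09), followed by NUP93 at 49.7 and 21.5 FPKM (-1.21 ± 0.07, adjusted p = 6.9e-08). AAAS had the largest difference the other way, at 25.8 and 54.5 FPKM (1.08 ± 0.08, adjusted p = 1.05e-06), followed by NUP133 at 18.3 and 28.9 FPKM (0.66 ± 0.05, adjusted p = 9.02e-07). With 5A left out, so that the controls compared were all from lanes 1 and 2, 27 members were called, the number of the full set.

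**Figure D4:**
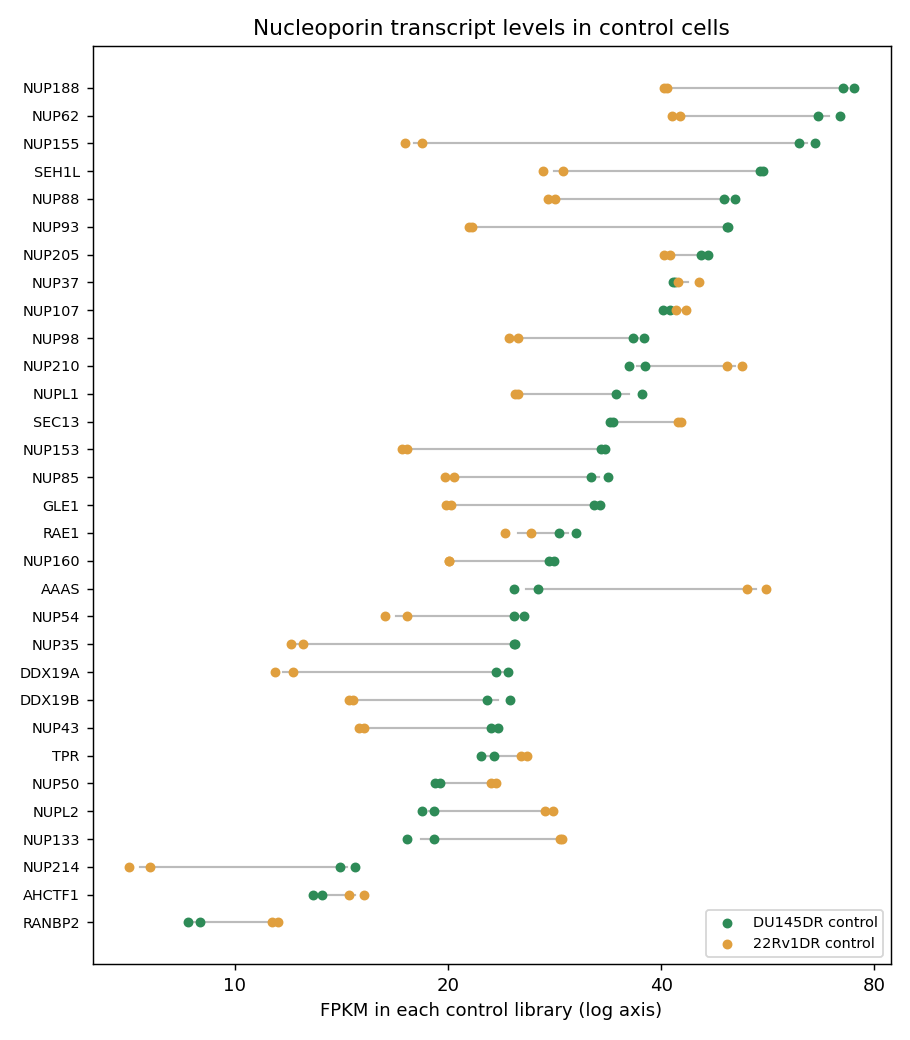
FPKM of each nucleoporin transcript in the 2 control libraries of DU145DR (green) and of 22Rv1DR (orange) on a log axis, ordered by the DU145DR level, with a grey line joining the group means. NUP155 and NUP93 are the widest gaps with DU145DR higher, and AAAS is the widest with 22Rv1DR higher.

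Other genes that act at the pore were read from a list of 22 symbols, of which 21 were tested. Without POM121 and POM121C, 5 of 19 fell and 1 rose in DU145DR, and 9 of 19 fell and 1 rose in 22Rv1DR, with medians of -0.09 and -0.11. Of all symbols 9.37% fell and 14.5% rose in DU145DR, and 20.4% and 15.2% in 22Rv1DR. NDC1, the third membrane anchor of the pore beside POM121 and NUP210, stood at 33.7 and 35.3 FPKM in DU145DR controls and 29.8 to 31.6 with siPOM121, and at 20.8 and 20.2 FPKM in 22Rv1DR controls and 15.9 to 19.5 with siPOM121. It fell in both lines, by 0.18 ± 0.04 (adjusted p = 0.0123) and 0.23 ± 0.04 (adjusted p = 0.00235) on the log2 scale, as the mean of both constructs. By construct it fell with construct 1 in each line (-0.20, adjusted p = 0.0163, and -0.36, adjusted p = 0.000642) and did not pass with construct 2 (-0.15, adjusted p = 0.0523, and -0.10, adjusted p = 0.118). In 22Rv1DR the constructs differed in NDC1, which was higher with construct 2 by 0.26 ± 0.05 (adjusted p = 0.0112). KPNB1, the import receptor importin beta, fell by 0.17 ± 0.04 (adjusted p = 0.0169) and 0.40 ± 0.04 (adjusted p = 0.000179), and RANGAP1, which drives GTP hydrolysis on Ran at the cytoplasmic filaments, by 0.23 ± 0.05 (adjusted p = 0.0124) and 0.34 ± 0.05 (adjusted p = 0.00138).

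In 22Rv1DR MCM3AP (GANP), the scaffold of the TREX-2 mRNA export complex at the basket, fell by 0.40 ± 0.04 on the log2 scale (adjusted p = 0.000186), and the mRNA export receptor NXF1 by 0.47 ± 0.09 (adjusted p = 0.00286); in DU145DR their values were -0.10 and -0.25 and did not pass. The 1 gene of this list that rose in DU145DR was CETN2, a TREX-2 and centriole protein, from 23.4 and 24.3 FPKM to 27.0 to 29.7 (0.27 ± 0.05, adjusted p = 0.00686). The 1 that rose in 22Rv1DR was the import receptor TNPO1, which is named after its values were seen. TNPO1 fell in DU145DR (-0.29 ± 0.06, adjusted p = 0.0114) and rose in 22Rv1DR (0.20 ± 0.06, adjusted p = 0.0381), a difference of 0.49 ± 0.09 (adjusted p = 0.00578). By construct, the 22Rv1DR rise passed with construct 1 (0.25, adjusted p = 0.0346) and not with construct 2 (0.15, adjusted p = 0.15). TNPO1 stood at 20.1 FPKM in 4C and at 16.9 in 5C, the latter between the controls of 17.1 and 16.1.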

How the data were processed

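Poly(A) libraries were made with TruSeq v2 reagents, which keep no strand, per the labels' protocols. Reads went through TopHat and Cufflinks, with builds hg19 and mm10 named, per the submitters' processing notes; versions are not given in the sources used here. The deposited values are log2 FPKM as the authors made them: as powers of 2, 100% of positive values have 6 significant digits (tolerance 0.02 units of the sixth), against 3.97% with base e, and values at or below 1 FPKM are listed at 0 (52.8%). Of repeated symbols, none of them a nucleoporin, the row with the highest mean entered. Read depth is unknown.

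The log2 values of a library's lanes were averaged. Tests covered symbols with both lanes over 1 FPKM in 2 or more of the 12 libraries. limma 3.58.1 (R 4.3.3) fitted 6 group means with 6 residual degrees of freedom, trend and robust options, 2-sided, with Benjamini-Hochberg adjustment over 13622 symbols and a threshold of 0.05. The fit was tested on simulated data. Up to 24 alternatives were run, 2 of them (scaling outside ribosomal protein genes, and both 22Rv1DR construct 2 libraries left out) chosen after the data were seen. The members and lists were chosen with earlier results of these data known. Library values are given for members past the threshold in both lines, in the line difference or in a construct difference, for the 5 smallest p-values per line and at least 1 member per subcomplex, and for RAE1, added after its values were seen. Of the other genes at the pore, the 6 with the smallest p, POM121 and POM121C are named. Promoters came from RefSeq (GRCh38.p14). Shared 50-base windows and exon overlaps came from GENCODE transcripts of another build than hg19, without coordinates.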

Additional observations from a re-analysis of the deposited data

Results flagged for a closer look

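The siPOM121 effect differed between the sublines, by the test of the difference itself, for 8 nucleoporins, in each with the 22Rv1DR effect below the DU145DR effect. Of all symbols 15.9% were lower and 8.93% higher in this test, and the median difference was -0.06 over members and over all symbols. All but that of NUP85 lost the call under some alternative, and 1 member passed without 2A or without 5A. The differences on the log2 scale were -0.42 for NUP85, -0.35 for NUP93, -0.33 for NUP210, -0.32 for NUP62, -0.29 for GLE1, -0.27 for NUP214, -0.20 for NUP133 and -0.18 for NUP107. With construct 1 alone 4 members passed this test, 2 of the Y complex and 2 of the inner ring (11.9% of all symbols were lower). Those of NUP210, NUP62, GLE1 and NUP214 did not pass, and of NUP85, NUP133 and NUP107 not all passed. With construct 2 alone 5 passed (13.2% of all symbols were lower). These were 1 each in the Y complex, inner ring, central channel, cytoplasmic face and pore membrane. For NUP210 all 4 siPOM121 libraries lay above both controls in DU145DR, where the change did not pass (0.12, adjusted p = 0.169, with 27.2% of all symbols above both controls there), and below them in 22Rv1DR. Its difference between the lines was lost without 2A or 5A.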

How the results depend on the processing

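Among members that had passed the test in any of the 12 comparisons, none changed sign under the 22 to 24 alternatives fitted for it. NUP188 in both lines, NUP35 in DU145DR, and NUP85, NUP93, NUP107, NUP205 and NUP214 in 22Rv1DR passed in every fit that was run, as did the line difference of NUP85. Where a count moved, the cause was not tested.

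Counts of members called, with 1 library left out at a time, ranged from 2 to 16 for siPOM121 in DU145DR (8 in the full set), 12 to 26 in 22Rv1DR (19), 2 to 15 and 2 to 12 for constructs 1 and 2 in DU145DR (7 and 3), 8 to 20 and 11 to 28 in 22Rv1DR (16 and 19), 0 to 15 for the construct difference in 22Rv1DR (2), 1 to 16 for the line difference (8) and 26 to 29 between control arms (27); the construct difference in DU145DR stayed at 0. With array weights they were 15 for siPOM121 in DU145DR, 15 and 10 for its constructs, 6 for construct 2 in 22Rv1DR and 0 for the construct difference there. On the lower-numbered lanes alone they were 4 for siPOM121 in DU145DR (6.78% of all symbols fell) and 3 for its construct 1 (5.27%). The line difference gave 4 there and 5 on the higher-numbered lanes (11.2% of all symbols lower in each). Scaled to FPKM outside ribosomal protein genes, they were 3 and 5 for constructs 1 and 2 in DU145DR (6.28% and 6.25% of all symbols fell). For the line difference the count was 3 (12.6% of all symbols lower). Without both 22Rv1DR construct 2 libraries they were 16 for siPOM121 in DU145DR (16.3% of all symbols fell). For its constructs they were 15 and 12 (15.1% and 12.4% fell). With each line fitted alone they were 10 for siPOM121 in 22Rv1DR (7.94% of all symbols fell) and 8 and 5 for its constructs (6.42% and 4.87%). The construct difference there gave 0 (0.404% of all symbols higher and 0.117% lower), and construct 2 in DU145DR gave 5 (6.58% fell). Construct 2 in DU145DR gave 5 with pseudocounts of 1 or 0.1 FPKM or no filter on low values (5.69%, 5.18% and 5.34% of all symbols fell). With quantile normalization it gave 6 (8.40%). That setting gave 5 (3 higher with construct 2) for the construct difference in 22Rv1DR, where 8.37% of all symbols were higher and 6.59% lower. It moved the 22Rv1DR median of -0.212 to -0.146. Some of these counts hold a member that rose: NUP210 in DU145DR with quantile normalization, array weights or without 4C, 5C or both, NUP43 with siPOM121 in 22Rv1DR without 5C, NUP43 and NUP37 with construct 2 in 22Rv1DR without 5C (26 fell), and NUP43 with construct 2 there with quantile normalization or ribosomal scaling. With quantile normalization 1362 symbols rose and 1144 fell with construct 2 in DU145DR, against 1492 and 766.

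Libraries of a group share replicate numbers across arms. The deviations of same-numbered libraries correlated at -0.102 to 0.126 over all symbols, and on that ground the numbers were not taken to pair them. Over the members the correlations were 0.298, 0.118 and 0.310 in DU145DR and -0.250, 0.532 and 0.084 in 22Rv1DR, which do not settle whether the libraries are paired. With a replicate block the counts were 7 and 20 for siPOM121 in DU145DR and 22Rv1DR, 5 and 3 for the DU145DR constructs, 16 and 19 for those in 22Rv1DR, 0 and 2 for the construct differences, 6 for the line difference and 28 between control arms. The block removed the calls of SEH1L and NUP107 in DU145DR and those of NUP107 and GLE1 in the line difference. Depth is unknown, and with 2 libraries a group small changes could be missed.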
